A study of Mus musculus with 6 samples.

Results

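NRF2, the transcription factor encoded by NFE2L2, its inhibitor KEAP1 and a set of antioxidant genes that NRF2 controls were measured by RNA sequencing in HK-2 cells with and without USAG-1 overexpression. The genes were taken by symbol: NFE2L2, KEAP1, GCLC, GCLM, GSR, TXNRD1, SRXN1, NQO1, HMOX1 and OSGIN1. These are 10 of the 39234 genes in the count table, and 10 of 10 passed the filter on low counts that 18188 genes passed.

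HK-2 is an immortalized epithelial line derived from the proximal tubule of the human kidney. The study asked how USAG-1, a secreted BMP and Wnt antagonist encoded by SOSTDC1, alters injury of these cells, and the comparison here is between 3 Control libraries and 3 libraries with USAG-1 overexpression (USAG-1 OE). All 6 carry the label of wild-type genotype and no label names another treatment. For HK-2 cells the study describes USAG-1 overexpression by transient plasmid transfection, and whether the Control cells of these libraries received an empty vector is not given in the sources used here. Although the samples are labelled as mouse, HK-2 cells are human, and so are the Ensembl identifiers of the table. Nothing in the labels states that the replicates were separate cultures. The paper reports biological replicates for most of its experiments but does not say whether the sequencing was among them, so the p-values measure only the spread between these libraries, which may be technical.

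Under resting conditions KEAP1 captures NRF2 in the cytoplasm and passes it to a CUL3 ubiquitin ligase, so that the protein turns over quickly. Oxidants and electrophiles modify cysteines of KEAP1, NRF2 then accumulates, pairs with a small MAF protein and binds antioxidant response elements, where the repressor BACH1 competes for the same sites. The targets make and recycle glutathione, reduce thioredoxin and peroxiredoxins, and detoxify quinones and heme, and in the tubule they protect against ischemic and toxic injury. NRF2 is regulated largely at the protein level, which RNA sequencing does not measure.

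The Control libraries held 41236194, 48699471 and 44611384 counts, and the USAG-1 OE libraries 45448720, 43837891 and 42782931. SOSTDC1 (ENSG00000171243, chromosome 7, 16461481 to 16530580, minus strand) had 79, 80 and 60 counts in Control and 5072, 3907 and 4438 in USAG-1 OE. Its level was 1.64 ± 0.243 CPM (counts per 1000000 counts of TMM-scaled library size; SD, n = 3) in Control and 101 ± 10.6 in USAG-1 OE, so that each library carried the level its label implies. The log2 fold change was 5.94 (SE 0.13, adjusted p = 6.96e-07, edgeR).

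Control replicate 3 stood apart from the other Control libraries. The median absolute log2 difference over the tested genes was 0.113 between Control replicates 1 and 2, but 0.254 and 0.251 between each of these and replicate 3, against 0.127 to 0.129 between USAG-1 OE libraries. Among the pathway genes it was the lowest of the 6 libraries for NFE2L2, GCLC and GCLM, and the highest of the 6 for KEAP1, TXNRD1 and NQO1. Calls that turn on it are given with and without it. Leaving it out lowered the log2 fold changes of NFE2L2, GCLC and GCLM from 0.30, 0.45 and 0.35 to 0.23, 0.38 and 0.29. Those of KEAP1, NQO1 and TXNRD1 moved from 0.13, 0.17 and −0.14 to 0.24, 0.32 and −0.05. GSR, HMOX1, SRXN1 and OSGIN1 also had larger log2 fold changes without it.

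The libraries also differed in RNA from outside the pathway. All 15 of 15 T and NK cell markers were called lower in USAG-1 OE (median log2 fold change −3.65), beside 6.91% of all genes tested. Their summed level was 91.6, 93.8 and 112.8 CPM in Control and 11.0, 6.43 and 8.09 CPM in USAG-1 OE, with GNLY the most abundant by CPM, and no marker of the list was at 0 in all libraries. The mitochondrially encoded genes took 5.29 ± 0.426% of counts in Control and 1.53 ± 0.0255% in USAG-1 OE (SD, n = 3). With library sizes computed without the mitochondrially encoded genes, the same 7 pathway genes as below were called higher and 0 lower, with a median log2 fold change of 0.33 against 0.32. In that fit 9.18% of all genes tested were called higher and 6.85% lower. The part of the T and NK marker difference in the results was not tested. HK-2 is an epithelial line, and where the T and NK cell transcripts came from was not tested either. In bulk samples fewer cells of a type, less RNA per cell and RNA of another origin cannot be told apart. Of the label's own cell type, LRP2 was at 0 counts in every library, where 3 counts correspond to 0.0608 to 0.0719 CPM, and HNF4A, CUBN and AQP1 were too low to be tested. PAX8 was the most abundant proximal tubule marker by CPM and KRT8 the most abundant epithelial marker. Of 7 tested proximal tubule markers 3 were called higher (GGT1, MME and PAX8) and 1 lower (CDH16), beside 8.95% higher and 6.91% lower over all genes tested, GGT1, MME and CDH16 being named after their values were seen. The call of PAX8 was lost without Control replicate 2 (adjusted p = 0.0554) and without USAG-1 OE replicates 1, 2 and 3 (0.0627, 0.0643 and 0.0507), and that of CDH16 without USAG-1 OE replicate 2 (0.0536, edgeR).

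Of the 10 pathway genes, 7 were called higher in USAG-1 OE, 0 were called lower and 3 were not called, where called means an adjusted p under 0.05 in edgeR's quasi-likelihood test at any fold change. Across all 18188 genes tested, 8.95% were called higher and 6.91% lower. In a fit of the 15906 genes with at least 10 counts in every library, 10.5% were called higher and 8.44% lower. The 10 pathway genes were chosen with earlier results of these data known, which limits what their count can show beside these shares. The genes called higher were OSGIN1, GSR, GCLC, GCLM, HMOX1, NFE2L2 and SRXN1, while KEAP1, NQO1 and TXNRD1 were not called. At an unadjusted p under 0.05 in edgeR 7 pathway genes were higher and 0 lower, where 5552 of all 18188 genes reached it in either direction. DESeq2 and limma-voom also called 7 higher and 0 lower. Over all genes 11.2% were called higher and 9.49% lower in DESeq2, and 9.08% and 6.83% in limma-voom. The changes were small, with a median log2 fold change of 0.32 against −0.02 over all genes tested and the largest, that of OSGIN1, at 0.95. In 7 of the 10 genes every USAG-1 OE library was above every Control library, as in 19.4% of all genes tested, and in TXNRD1 every USAG-1 OE library was below every Control library, as in 18.1%. The number called higher ranged from 2 to 9 when a library was left out, and each such library is named with the genes it affects.

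**Figure D1:**
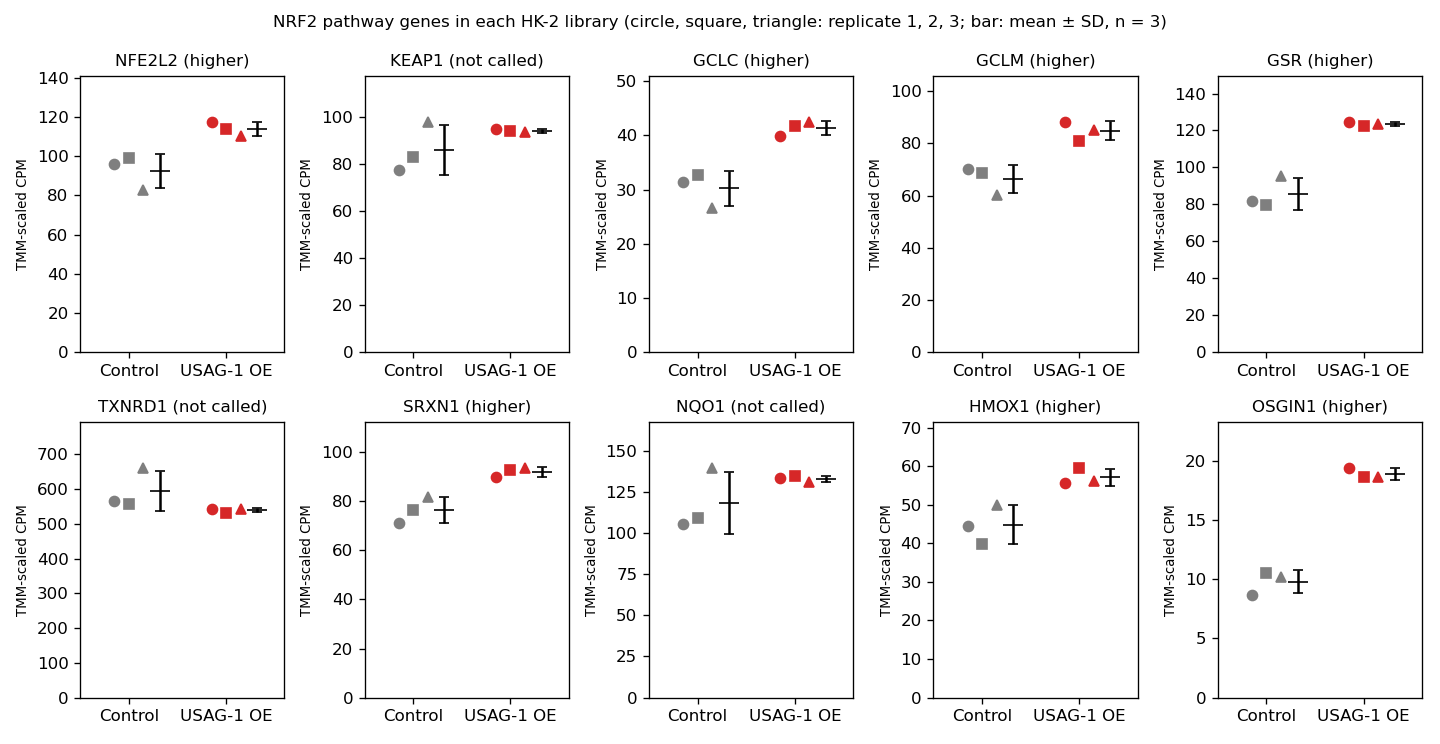
Level of each of the 10 NRF2 pathway genes in TMM-scaled CPM (vertical axis, starting at 0 and scaled separately for each gene) in the 3 Control libraries (gray) and the 3 USAG-1 OE libraries (red), with symbols for the replicate number and a black bar for the mean ± SD (n = 3). The groups do not overlap in NFE2L2, GCLC, GCLM, GSR, SRXN1, HMOX1, OSGIN1 and TXNRD1, the last of which is lower in USAG-1 OE and was not called, and Control replicate 3 (triangle) is the highest library for KEAP1, TXNRD1 and NQO1.

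The regulator itself was modestly higher. NFE2L2 (ENSG00000116044, chromosome 2, 177218667 to 177392697, minus strand) had 4012, 4886 and 3519 counts in Control replicates 1, 2 and 3, and 5395, 4966 and 4755 counts in USAG-1 OE replicates 1, 2 and 3. After scaling these were 96.1, 99.0 and 82.5 CPM in Control and 117, 114 and 110 CPM in USAG-1 OE. Control replicate 3 was the lowest library and the USAG-1 OE libraries lay close together above all 3 Control libraries. The mean was 92.5 ± 8.80 CPM in Control and 114 ± 3.66 CPM in USAG-1 OE (SD, n = 3), a log2 fold change of 0.30 (SE 0.08, adjusted p = 0.0367, edgeR). This call was lost without Control replicate 1 (adjusted p = 0.0658) and without USAG-1 OE replicates 1, 2 or 3 (adjusted p = 0.137, 0.120 and 0.0923, edgeR), as well as with library sizes alone (0.0574) and with no filter on low counts (0.0660). Over the 15 alternatives its log2 fold change ranged from 0.23 to 0.35 and its adjusted p from 0.00451 to 0.137. NFE2L2 shares its span with HNRNPA3 on the opposite strand, which had 20321 counts per library on average and a log2 fold change of 0.14 (SE 0.05, adjusted p = 0.0967, edgeR), and with ENSG00000213963 on its own strand. The latter had 231 counts and was called lower, with a log2 fold change of −0.97 (SE 0.17, adjusted p = 0.00827, edgeR). The libraries were strand-specific per the labels, which describe poly(A) selection where the series text mentions removal of ribosomal RNA and another sequencer, and how the counting used strand is not stated, and whether exons overlap was not examined, so how any shared reads were assigned is not known.

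KEAP1, the sensor that holds NRF2 back, did not pass the test. KEAP1 (ENSG00000079999, chromosome 19, 10486125 to 10503356, minus strand) had 3231, 4108 and 4182 counts in Control and 4373, 4108 and 4039 in USAG-1 OE, which scaled to 77.4, 83.2 and 98.1 CPM and to 95.2, 94.1 and 93.6 CPM. The groups overlapped, with Control replicate 3 the highest of the 6 libraries and Control replicates 1 and 2 the lowest. The mean was 86.2 ± 10.7 CPM in Control and 94.3 ± 0.851 CPM in USAG-1 OE (SD, n = 3), with a log2 fold change of 0.13 (SE 0.09, adjusted p = 0.370, edgeR). Without Control replicate 3 the log2 fold change was 0.24 and KEAP1 was called higher (adjusted p = 0.00518, edgeR). This was the only 1 of the 15 alternatives in which it was called (range of adjusted p 0.00518 to 0.721). The log2 fold change was 0.06 without Control replicate 1 and 0.10 without Control replicate 2.

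The balance of regulator and sensor was read from the ratio of their raw counts within each library, 1 of 6 such ratios chosen after the values were seen. In an exact two-sided permutation test of 3 against 3 libraries, whose smallest possible p is 0.1, none of the 6 could pass the threshold, with p from 0.1 to 0.7 and Benjamini-Hochberg adjusted p over the 6 from 0.2 to 0.7. The size of such a ratio depends on gene length, so only its difference between libraries was read. There were 1.24, 1.19 and 0.841 counts of NFE2L2 per count of KEAP1 in Control replicates 1, 2 and 3, and 1.23, 1.21 and 1.18 in USAG-1 OE. Control replicate 3 lay below all other libraries, and the ratios of Control replicates 1 and 2 fell among or beside those of USAG-1 OE. The log2 difference in this ratio was 0.17 with all libraries (exact permutation p = 0.7) and −0.01 without Control replicate 3. Without Control replicates 1 and 2 the difference was 0.27 and 0.24.

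Among the 16 genes of regulators and partners, 6 were called higher and 0 lower, beside 8.95% and 6.91% of all genes tested, and the median log2 fold change was 0.20 against −0.02. At an unadjusted p under 0.05 in edgeR 8 were higher and 0 lower, where 5552 of all 18188 genes reached it in either direction. DESeq2 called 7 higher and 0 lower, beside 11.2% and 9.49% of all genes. BACH1, the repressor that competes with NRF2 for antioxidant response elements, had 1532, 1805 and 1460 counts in Control and 2499, 2366 and 2222 in USAG-1 OE. Every USAG-1 OE library was well above every Control library, at 35.8 ± 1.39 CPM against 53.4 ± 1.63 CPM (SD, n = 3). Its log2 fold change was 0.57 (SE 0.06, adjusted p = 0.0012, edgeR), and it was called in 15 of 15 alternatives. There were 0.382, 0.369 and 0.415 counts of BACH1 per count of NFE2L2 in Control and 0.463, 0.476 and 0.467 in USAG-1 OE. This ratio did not overlap between the groups, and its log2 difference was 0.27 (exact permutation p = 0.1, adjusted 0.2), or 0.32 without Control replicate 3.

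MAFF, a small MAF protein that can pair with NRF2 or BACH1, had a log2 fold change of 0.56 (SE 0.11, adjusted p = 0.0117, edgeR), from 29.1 ± 4.39 to 42.9 ± 2.01 CPM (SD, n = 3). The acetyltransferases EP300 and CREBBP, coactivators of NRF2 and of many other factors, rose by 0.43 (SE 0.06, adjusted p = 0.00236, edgeR) and 0.33 (SE 0.05, adjusted p = 0.00635, edgeR) on the log2 scale. GSK3B, a kinase that marks NRF2 for degradation independently of KEAP1, rose by 0.32 (SE 0.06, adjusted p = 0.00832, edgeR). The related factor NFE2L3 rose by 0.25 (SE 0.05, adjusted p = 0.0183, edgeR). Calls were lost for MAFF without USAG-1 OE replicate 2 (adjusted p = 0.0557) or 3 (0.0596), for GSK3B without USAG-1 OE replicate 2 (0.0517), and for NFE2L3 when any library but Control replicate 3 was left out (0.0573 to 0.0847, edgeR). The list had 9 genes called higher without Control replicate 3, where 15.8% of all genes were, and 3 and 4 without USAG-1 OE replicates 2 and 3, where 3.31% and 4.01% were.

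The enzyme of the rate-limiting step of glutathione synthesis, glutamate-cysteine ligase, was higher in both of its subunits. GCLC, the catalytic subunit (ENSG00000001084, chromosome 6, 53497341 to 53616970, minus strand), had 1311, 1613 and 1136 counts in Control and 1835, 1827 and 1834 in USAG-1 OE, which scaled to 31.4, 32.7 and 26.6 CPM and to 40.0, 41.8 and 42.5 CPM. The groups did not overlap, and Control replicate 3 was again the lowest library. The mean was 30.2 ± 3.19 CPM in Control and 41.4 ± 1.31 CPM in USAG-1 OE (SD, n = 3), a log2 fold change of 0.45 (SE 0.09, adjusted p = 0.0114, edgeR). Without USAG-1 OE replicate 2 or 3 the adjusted p was 0.0606 and 0.0568, and it did not exceed 0.0606 in any of the 15 alternatives.

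GCLM, the modifier subunit (ENSG00000023909, chromosome 1, 93885199 to 93909456, minus strand), had 2937, 3385 and 2565 counts in Control and 4052, 3537 and 3675 in USAG-1 OE. In CPM these were 70.3, 68.6 and 60.2 against 88.3, 81.0 and 85.2, with no overlap between the groups and Control replicate 3 the lowest. The mean went from 66.4 ± 5.45 to 84.8 ± 3.64 CPM (SD, n = 3), a log2 fold change of 0.35 (SE 0.08, adjusted p = 0.0172, edgeR). The adjusted p was 0.0832, 0.0527 and 0.0721 without USAG-1 OE replicates 1, 2 and 3 and ranged from 0.000613 to 0.0832 over the 15 alternatives. Between the subunits, the log2 difference in the ratio of GCLC to GCLM counts was 0.10 (exact permutation p = 0.2, adjusted 0.24), and the groups overlapped in this ratio. The difference was 0.16 without USAG-1 OE replicate 1 and 0.06 without USAG-1 OE replicate 2.

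GSR, which regenerates reduced glutathione with NADPH, had the second largest change of the pathway genes. GSR (ENSG00000104687, chromosome 8, 30678066 to 30727846, minus strand) had 3407, 3925 and 4076 counts in Control and 5720, 5357 and 5323 in USAG-1 OE, or 81.6, 79.5 and 95.6 CPM and 125, 123 and 123 CPM. All USAG-1 OE libraries lay far above the highest Control library, which was replicate 3. The mean was 85.6 ± 8.73 CPM in Control and 124 ± 0.968 CPM in USAG-1 OE (SD, n = 3), a 1.44-fold difference with a log2 fold change of 0.53 (SE 0.08, adjusted p = 0.00383, edgeR). GSR was called in 15 of 15 alternatives, with a log2 fold change of 0.48 to 0.62 and an adjusted p of at most 0.0264.

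Across the list of glutathione synthesis and breakdown, 7 of 17 genes were called higher and 0 lower, with a median log2 fold change of 0.25, beside 8.95% higher and 6.91% lower over all genes tested. These 7 include GCLC, GCLM and GSR, which are counted among the pathway genes above. At an unadjusted p under 0.05 in edgeR 9 genes were higher and 1 lower, where 5552 of all 18188 genes reached it in either direction. Limma-voom called 0 lower, beside 6.83% of all genes, and DESeq2 called 1 lower, beside 9.49%. SLC7A11, the cystine importer of the xCT antiporter, had 458, 553 and 436 counts in Control and 1341, 1176 and 997 in USAG-1 OE. It showed the widest gap between the groups among the genes named from this list, with a log2 fold change of 1.29 (SE 0.11, adjusted p = 0.000436, edgeR), a 2.45-fold difference. CHAC1, which degrades glutathione, had 98, 112 and 96 counts in Control and 238, 234 and 159 in USAG-1 OE, and its log2 fold change was 1.05 (SE 0.19, adjusted p = 0.00922, edgeR). Without USAG-1 OE replicate 2 its adjusted p was 0.0506 (range over the 15 alternatives 0.000115 to 0.0506).

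LAP3, a leucine aminopeptidase that also cleaves cysteinylglycine, rose by 0.35 on the log2 scale (SE 0.07, adjusted p = 0.0174, edgeR), but its adjusted p was between 0.0584 and 0.0782 when any library but Control replicate 3 was left out. GGT1, which starts the breakdown of extracellular glutathione and was chosen for mention after its values were seen, had a log2 fold change of 0.55 (SE 0.12, adjusted p = 0.0208, edgeR). Its call was lost without USAG-1 OE replicates 1 and 3 (adjusted p = 0.0881 and 0.0841, edgeR), in alternatives added after seeing the data. The genes called higher therefore included enzymes of both synthesis and breakdown. The list had 8 genes called higher and 1 lower without Control replicate 3, beside 15.8% and 11.2% of all genes. It had 6 higher without Control replicate 1 or 2, beside 5.77% and 5.00% of all genes, and 4, 3 and 3 without USAG-1 OE replicates 1, 2 and 3, beside 3.76%, 3.31% and 4.01%. In these 5 fits 0 were lower, beside 2.67 to 4.41% of all genes.

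TXNRD1, which reduces thioredoxin with NADPH, did not pass the test. TXNRD1 (ENSG00000198431, chromosome 12, 104215779 to 104350307, plus strand) had 23654, 27571 and 28241 counts in Control and 24950, 23265 and 23401 in USAG-1 OE. These were 567, 559 and 662 CPM against 543, 533 and 542 CPM. All USAG-1 OE libraries were below all Control libraries, though the gap to Control replicates 1 and 2 was narrow and Control replicate 3 lay well above the rest. The mean was 596 ± 57.6 CPM in Control and 539 ± 5.84 CPM in USAG-1 OE (SD, n = 3), with a log2 fold change of −0.14 (SE 0.07, adjusted p = 0.225, edgeR). TXNRD1 was not called in any of the 15 alternatives (adjusted p 0.169 to 0.441), its log2 fold change lay between −0.19 and −0.05, and it was the only pathway gene with a negative value. It shares its span with the pseudogene RPL18AP3 on the same strand, at 1443 counts per library on average against 25180 for TXNRD1.

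SRXN1, sulfiredoxin, restores overoxidized peroxiredoxins (ENSG00000271303, chromosome 20, 646615 to 653200, minus strand). It had 2980, 3782 and 3491 counts in Control and 4124, 4054 and 4048 in USAG-1 OE, or 71.4, 76.6 and 81.9 CPM and 89.8, 92.8 and 93.8 CPM. The groups did not overlap and Control replicate 1 was the lowest library. The mean went from 76.6 ± 5.24 to 92.2 ± 2.07 CPM (SD, n = 3), a log2 fold change of 0.27 (SE 0.07, adjusted p = 0.0312, edgeR). The call was lost when any library but Control replicate 3 was left out (adjusted p = 0.0938 and 0.0912 without Control replicates 1 and 2, and 0.0923, 0.116 and 0.116 without USAG-1 OE replicates 1, 2 and 3) and with no filter on low counts (0.0571, edgeR). Over the 15 alternatives its adjusted p ranged from 0.00145 to 0.116.

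SRXN1 was the only 1 of 17 thioredoxin system genes called, with 0 called lower and a median log2 fold change of −0.06, beside 8.95% higher and 6.91% lower over all genes tested. Without Control replicate 3 there were 2 called higher and 1 lower, and the median turned to 0.04, beside 15.8% higher and 11.2% lower over all genes in that fit. The median was −0.13 and −0.12 without Control replicates 1 and 2. It was −0.06, −0.09 and −0.07 without USAG-1 OE replicates 1, 2 and 3. When any other library was left out 0 were called higher, beside 3.31 to 5.77% of all genes, and 1 was called lower without Control replicate 1, beside 4.41%. In this list 2 genes were higher and 1 lower at an unadjusted p under 0.05 in edgeR, which 5552 of all 18188 genes reached in either direction. DESeq2 called 2 higher and 1 lower, beside 11.2% and 9.49% of all genes. The counts of GSR and SRXN1 were also set against those of TXNRD1 within each library. There were 0.144, 0.142 and 0.144 counts of GSR per count of TXNRD1 in Control and 0.229, 0.230 and 0.227 in USAG-1 OE. This ratio varied little within either group, Control replicate 3 included, and its log2 difference was 0.67, with a range of 0.67 to 0.68 when each library was left out. For SRXN1 against TXNRD1 the ratios were 0.126, 0.137 and 0.124 in Control and 0.165, 0.174 and 0.173 in USAG-1 OE, a log2 difference of 0.41 with no overlap between the groups. Both reached the smallest p that the exact permutation test allows (p = 0.1, adjusted 0.2), which was above the threshold.

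NQO1, which reduces quinones (ENSG00000181019, chromosome 16, 69706996 to 69726584, minus strand), had 4405, 5381 and 5960 counts in Control and 6121, 5881 and 5650 in USAG-1 OE. In CPM these were 106, 109 and 140 against 133, 135 and 131. The groups overlapped, since Control replicate 3 was above all 3 USAG-1 OE libraries, whereas Control replicates 1 and 2 were below them. The mean was 118 ± 18.8 CPM in Control and 133 ± 1.90 CPM in USAG-1 OE (SD, n = 3), with a log2 fold change of 0.17 (SE 0.10, adjusted p = 0.313, edgeR). Without Control replicate 3 the log2 fold change was 0.32 and NQO1 was called higher (adjusted p = 0.000489, edgeR). It was not called in the other alternatives, in which the adjusted p reached 0.618. Its log2 fold change was 0.10 without Control replicate 1 and 0.12 without Control replicate 2.

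HMOX1, heme oxygenase, opens the heme ring (ENSG00000100292, chromosome 22, 35380361 to 35394214, plus strand). It had 1858, 1969 and 2133 counts in Control and 2553, 2607 and 2424 in USAG-1 OE, which scaled to 44.5, 39.9 and 50.0 CPM and to 55.6, 59.7 and 56.2 CPM. No library of USAG-1 OE fell within the range of Control, whose replicate 3 was its highest. The mean was 44.8 ± 5.07 CPM in Control and 57.2 ± 2.22 CPM in USAG-1 OE (SD, n = 3), a log2 fold change of 0.35 (SE 0.09, adjusted p = 0.0314, edgeR). The call was lost without Control replicates 1 or 2 (adjusted p = 0.0835 and 0.0895), without USAG-1 OE replicates 1, 2 or 3 (0.0907, 0.131 and 0.0929) and with no filter on low counts (0.0570, edgeR), and the adjusted p ranged from 0.000943 to 0.131 over the 15 alternatives. There were 2.37, 2.73 and 2.79 counts of NQO1 per count of HMOX1 in Control and 2.40, 2.26 and 2.33 in USAG-1 OE, with overlap between the groups and a log2 difference in this ratio of −0.17 (exact permutation p = 0.2, adjusted 0.24).

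Of 17 genes of heme synthesis and breakdown, 4 were called higher and 1 lower, with a median log2 fold change of 0.02, beside 8.95% higher and 6.91% lower over all genes tested. Besides HMOX1 and BACH1, the gene with the largest rise was SLC48A1, a heme transporter of the lysosome, with 1508, 1520 and 1545 counts in Control and 2877, 2633 and 2470 in USAG-1 OE. Its groups were far apart, with a log2 fold change of 0.81 (SE 0.08, adjusted p = 0.000929, edgeR), and it was called in 15 of 15 alternatives. ALAS1, the rate-limiting enzyme of heme synthesis outside the red cell lineage, rose by 0.28 on the log2 scale (SE 0.07, adjusted p = 0.0299, edgeR), and PPOX, a later enzyme of synthesis, had a log2 fold change of −0.71 (SE 0.20, adjusted p = 0.0482, edgeR). Both calls were lost when any library but Control replicate 3 was left out (adjusted p of 0.0738 to 0.113 for ALAS1 and 0.0854 to 0.127 for PPOX, edgeR) and with no filter on low counts (0.0504 and 0.0955), and that of PPOX also with library sizes alone (0.0541). The list had 8 genes called higher and 2 lower without Control replicate 3, with a median log2 fold change of 0.13 and 15.8% higher and 11.2% lower over all genes in that fit, and 2 higher and 0 lower when any other library was left out, beside 3.31 to 5.77% higher and 2.67 to 4.41% lower over all genes. The median turned to −0.007 without Control replicate 2 and to −0.012 without USAG-1 OE replicate 3. It was 0.04, 0.06 and 0.02 without Control replicate 1 and USAG-1 OE replicates 1 and 2.

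OSGIN1, a growth inhibitor induced by oxidative stress, had the largest change of the 10 pathway genes. OSGIN1 (ENSG00000140961, chromosome 16, 83931311 to 83966332, plus strand) had 363, 518 and 434 counts in Control and 892, 813 and 803 in USAG-1 OE, or 8.69, 10.5 and 10.2 CPM and 19.4, 18.6 and 18.6 CPM. The lowest USAG-1 OE library was far above the highest Control library. The mean was 9.79 ± 0.962 CPM in Control and 18.9 ± 0.471 CPM in USAG-1 OE (SD, n = 3), a 1.93-fold difference with a log2 fold change of 0.95 (SE 0.10, adjusted p = 0.0012, edgeR). It was called in 15 of 15 alternatives, with a log2 fold change of 0.87 to 1.00 and an adjusted p of at most 0.0111. OSGIN1 shares its span with MLYCD on the same strand, which had 408 counts per library on average and a log2 fold change of −0.39 (SE 0.15, adjusted p = 0.115, edgeR).

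**Figure D2:**
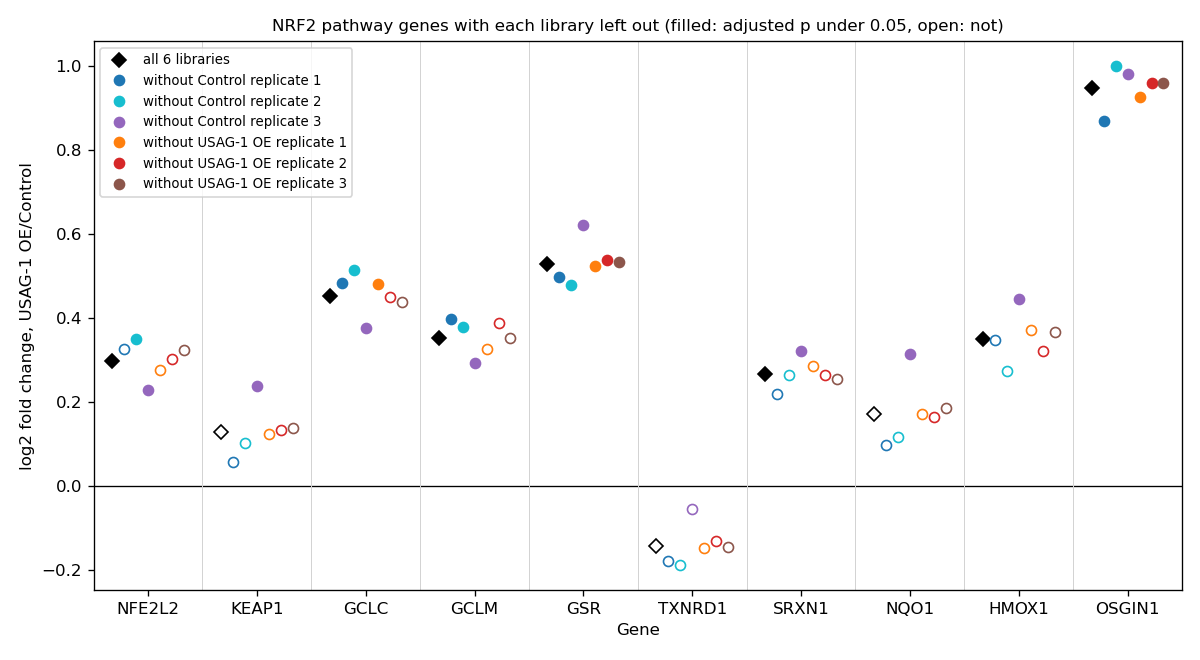
Log2 fold change of each of the 10 NRF2 pathway genes (vertical axis, USAG-1 OE over Control) with all 6 libraries (black diamond) and with each library left out in turn (colored circles), filled where the adjusted p was under 0.05 in edgeR. OSGIN1 and GSR are filled throughout, KEAP1 and NQO1 are filled only without Control replicate 3, TXNRD1 is open throughout, and no gene changes its sign.

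Set among all genes tested, 1.82% had a larger log2 fold change than OSGIN1 and 6.61% a larger value than GSR. The corresponding shares were 8.89% for GCLC, 13.5% for GCLM, 13.6% for HMOX1, 16.7% for NFE2L2 and 19.0% for SRXN1. NQO1, KEAP1 and TXNRD1 had 27.1%, 31.5% and 64.2% of genes above them. The pathway genes thus spread over the upper part of the distribution, with TXNRD1 in its lower part. Their USAG-1 OE libraries were closely grouped, with log2 ranges from 0.02 for GSR to 0.12 for GCLM against a median of 0.21 over all genes tested, whereas their Control ranges ran from 0.20 for SRXN1 to 0.41 for NQO1 against a median of 0.34. Both medians include genes of much lower counts than the pathway genes, and no comparison at like counts was made.

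When a library was left out, the number of genes called higher moved in the same direction from the fit of all libraries in the pathway and in the whole table. Without Control replicate 3, 9 of the 10 pathway genes and 15.8% of all genes tested were called higher. Without Control replicates 1 and 2 the pathway count was 4 and 5, beside 5.77% and 5.00% of all genes. Without USAG-1 OE replicates 1, 2 and 3 it was 3, 2 and 2, beside 3.76%, 3.31% and 4.01%. The median log2 fold change of the pathway genes stayed between 0.31 and 0.34 in these fits.

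Of the other NRF2 target genes, 29 of the 31 in the table were tested, 5 were called higher and 2 lower, and the median log2 fold change was 0.05. Over all genes tested 8.95% were called higher and 6.91% lower, the latter being close to the 2 of 29 here. SLC7A11 and SLC48A1 are described above. IDH1, a cytosolic source of NADPH, had a mean of 48.8 ± 3.92 CPM in Control and 67.0 ± 2.16 CPM in USAG-1 OE (SD, n = 3), a log2 fold change of 0.46 (SE 0.07, adjusted p = 0.00537, edgeR). ME1, malic enzyme, another NADPH source, rose by 0.34 (SE 0.06, adjusted p = 0.00749, edgeR) and ABCC1, an exporter of glutathione conjugates, by 0.31 (SE 0.05, adjusted p = 0.00622, edgeR) on the log2 scale.

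ABCC3, a related exporter, went the other way. It had 1746, 2280 and 1493 counts in Control and 1123, 936 and 1015 in USAG-1 OE, with every USAG-1 OE library below every Control library. Its log2 fold change was −0.83 (SE 0.11, adjusted p = 0.00254, edgeR). UGDH, which makes UDP-glucuronate and was chosen for mention after its values were seen, had a log2 fold change of −0.29 (SE 0.06, adjusted p = 0.0129, edgeR). Its call was lost without USAG-1 OE replicates 1, 2 and 3 (adjusted p = 0.0648, 0.0774 and 0.0513, edgeR). SLC7A11, SLC48A1, IDH1, ME1, ABCC1 and ABCC3 were called in 15 of 15 alternatives. Without Control replicate 3 the list had 12 genes called higher and 2 lower, with a median log2 fold change of 0.21 and 15.8% higher and 11.2% lower over all genes (each library left out, an alternative for the lists added after seeing the data), and without USAG-1 OE replicate 1, 2 or 3 it had 5 higher and 1 lower, beside 3.76, 3.31 and 4.01% higher and 3.16, 2.67 and 3.08% lower over all genes.

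**Figure D3:**
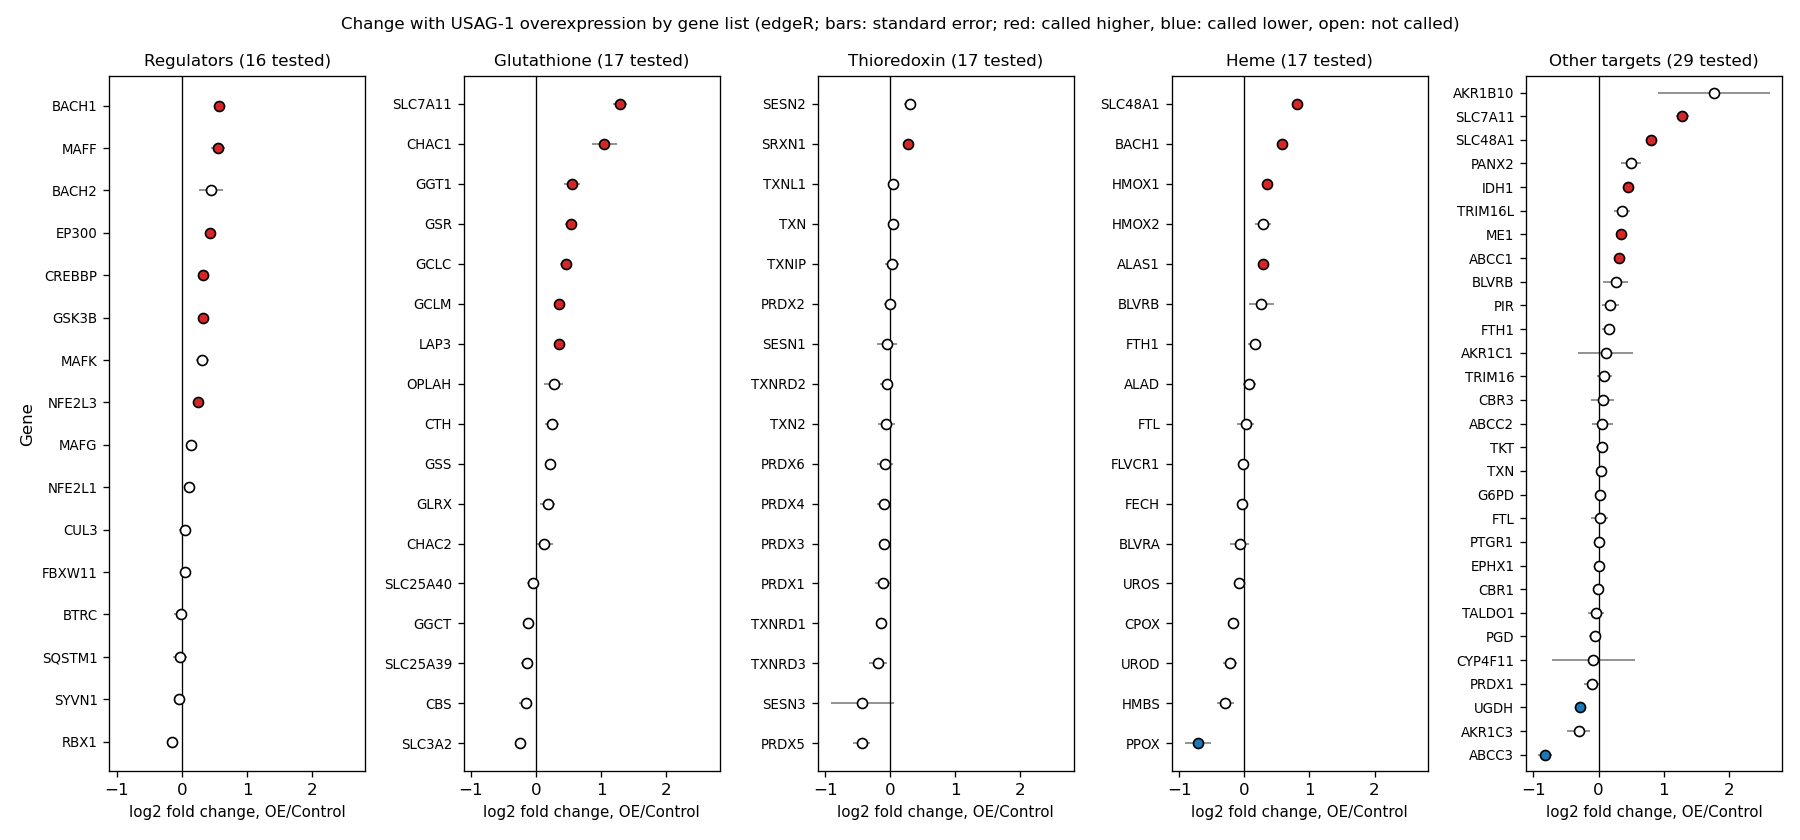
Log2 fold change with its standard error (horizontal axis, USAG-1 OE over Control, edgeR) of each tested gene in 5 lists of the pathway, sorted by size within a list, with genes called higher in red, called lower in blue and not called in white. From left to right 6 of 16, 7 of 17, 1 of 17, 4 of 17 and 5 of 29 genes were called higher and 0, 0, 0, 1 and 2 lower, beside 8.95% and 6.91% of all genes tested, with no test of the difference between lists. A gene on several lists is drawn in each.

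Sources and scavengers of superoxide and peroxide were mixed, with 2 of 7 tested genes called higher, 2 lower and a median log2 fold change of −0.05, beside 8.95% higher and 6.91% lower over all genes tested. Without Control replicate 3 there were 2 higher and 3 lower, and the median turned to 0.03, in a fit with 15.8% of all genes called higher and 11.2% lower. When any other library was left out 0 were higher, beside 3.31 to 5.77% of all genes. In these fits 1 or 2 were lower, beside 2.67 to 4.41%, and the median lay between −0.11 and −0.03. With no filter on low counts 0 of 10 were higher and 2 lower, beside 3.59% and 2.67% of all genes. The median in that fit was 0.06. SOD2, the mitochondrial superoxide dismutase, had 22090, 26997 and 26150 counts in Control and 20534, 18958 and 18574 in USAG-1 OE, with a log2 fold change of −0.37 (SE 0.07, adjusted p = 0.00882, edgeR). CYBA, a membrane subunit of NADPH oxidases, had a log2 fold change of −0.47 (SE 0.06, adjusted p = 0.00195, edgeR). In both genes every USAG-1 OE library was below every Control library. CAT, catalase, rose by 0.32 (SE 0.08, adjusted p = 0.0367, edgeR) and SOD3, the extracellular dismutase, by 0.70 (SE 0.18, adjusted p = 0.0323, edgeR) on the log2 scale. SOD3 and CAT were not called when any library but Control replicate 3 was left out (adjusted p 0.0541 to 0.119 and 0.0609 to 0.135) or with no filter on low counts (0.0662 and 0.0633, edgeR). SOD2 was not called without USAG-1 OE replicate 2 or 3 (0.0558 and 0.0556), and CYBA was called in 15 of 15 alternatives.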

How the data were processed

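The authors deposited 1 table of whole-number counts per gene for 6 libraries, not normalized, with gene symbols and positions; its name mentions FPKM, but its columns are labelled as counts. The submitters' processing notes name cutadapt 1.9, FastQC and hg38. The aligner, the counting tool, its use of strand and the annotation are not given in the sources used here. Groups and replicate numbers came from the sample titles. After filterByExpr and TMM scaling, edgeR 4.0.16 (glmQLFit, glmQLFTest; R 4.3.3) compared the groups, with Benjamini-Hochberg adjustment over 18188 genes. Standard errors (SE) were derived by dividing each log2 value by the root of its F statistic. DESeq2 1.42.0, which the study's methods name, limma-voom (limma 3.58.1), other scalings and filters, a replicate block and each library left out were alternatives. The code was tested on simulated data.

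The pathway genes and all lists were chosen with earlier results of these data known, the lists being typed from general knowledge. Named are SOSTDC1, the 10 pathway genes, up to 6 called genes with the smallest p in each other pathway list, and of each marker list (proximal tubule, epithelial, T and NK, B, myeloid, erythroid and platelet, fibroblast, endothelial) the most abundant gene and those at 0. Other genes are marked as chosen after their values were seen. The alternatives of these genes and of PAX8 and LUM were added after seeing the data. Genes of the lists with no entry in the table were not analysed here. Positions are those of the table.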

Additional observations from a re-analysis of the deposited data

How the results depend on the processing

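Of 465 values (31 named genes, each under 15 alternatives), 397 kept their direction and side of the threshold, 66 kept their direction but missed the threshold, 2 newly passed it (KEAP1 and NQO1 without Control replicate 3) and 0 changed sign. Leaving out a library gave 2 to 9 pathway genes called higher and 1137 to 5091 genes called in all, against 7 and 2884 with all libraries; fewer samples enter these fits. With no filter on low counts 32507 genes were tested, 4 pathway genes were called higher and 2034 genes in all. At an adjusted p under 0.01, 2 pathway genes and 1104 genes were called. No pathway gene was called lower under any alternative. The replicate numbers did not pair the libraries (correlations of deviations 0.07, −0.05 and 0.04), and with a replicate block 2381 genes and 7 pathway genes were called, while CAT (adjusted p = 0.0591) and PPOX (0.0711, edgeR) were not. Matches to promoter motifs were not run, because no human genome or promoter sequence was used here. At these depths counting error is small for the pathway genes, whose lowest count was 363.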

Other observations

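The marker lists of other cell types differed in how they moved. Over all genes tested 8.95% were called higher and 6.91% lower. Of 8 tested myeloid markers 2 were called lower and 0 higher, with a summed level of 58.1, 40.6 and 42.4 CPM in Control and 31.2, 27.2 and 33.6 CPM in USAG-1 OE and LYZ the most abundant. None of 5 B cell markers was called, and their sum, led by CD79A, was at most 4.07 CPM in any library. Erythroid and platelet markers, led by HBB, summed to 110 CPM in Control replicate 2 and 77.3 CPM in USAG-1 OE replicate 1, against 8.19 to 19.7 CPM in the other libraries. None of their 5 tested genes was called, and the groups overlapped. Of 3 tested fibroblast markers 1 was called higher, LUM, with a log2 fold change of 0.57 (SE 0.06, adjusted p = 0.00114, edgeR), while COL1A2 was at 0 in every library. None of the 2 tested endothelial markers, led by PECAM1, was called. Of 7 tested epithelial markers 1 was called higher, CLDN1, which was named after its values were seen and had a log2 fold change of 0.64 (SE 0.06, adjusted p = 0.000564, edgeR). Its groups did not overlap, with 24241, 27529 and 26493 counts in Control and 41234, 40864 and 39275 in USAG-1 OE. The part of these differences in the NRF2 pathway results was not tested.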
